A study of Homo sapiens with 12 samples.

Results

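The genes described here are 51 human genes that act in the G2 phase and in mitosis, taken as a fixed list by symbol from what they are known to do. The rule used the symbols and no measured value, although the members were chosen with earlier results of these data known. Each symbol had 1 Ensembl identifier among the 58051 genes of the count tables, and all 51 genes passed the filters on low counts in all 3 cell lines. The libraries were made by RNA-seq of renal cell carcinoma lines, and the comparison asks what adding or blocking the activity of the microRNA miR-29 does to transcripts. 786-O and A-498 received a synthetic miR-29 mimic, with a control mimic as the reference (1 library of each kind in 786-O, 2 of each in A-498). ACHN received a miR-29 inhibitor, with a control inhibitor as the reference (3 libraries of each kind). Cells were transfected at 10 nM and RNA was taken 48 h later. The labels call all 3 lines clear cell renal cell carcinoma and name no engineered allele in any group, and each treatment was a transient transfection of a whole culture.

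In G2, cyclins A and B bind the kinase CDK1, and the CDC25 phosphatases switch the complex on, which drives the cell into mitosis. The kinases PLK1, AURKA and AURKB then build the spindle and correct its attachments, the kinetochore ties chromosomes to microtubules, and the checkpoint proteins of the BUB and MAD families hold the cell until every chromosome is attached. CDC20 and the ubiquitin-conjugating enzyme UBE2C then let the anaphase-promoting complex destroy cyclin B and securin (PTTG1). Transcripts of these genes are made mainly in late S phase and G2, under the MuvB complex with MYBL2 and FOXM1 and through promoter motifs called CHR and CCAAT, so their summed level is widely read as a measure of how many cells are dividing. In bulk RNA, fewer cells in G2 and mitosis and less of these transcripts per such cell cannot be told apart.

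Libraries held between 39919554 and 70027392 reads in genes. The 51 genes took 0.735% of those reads in the 786-O control library, 0.755% and 0.775% in the A-498 controls and 0.893% to 0.898% in the ACHN controls. Every member had at least 9.97 CPM in every library. CPM gives the reads of a gene relative to the reads of its library in genes that passed the filter on low counts, scaled by TMM within each line. As a check of the labels, 17 genes known as miR-29 targets were listed and 16 were tested: 15 fell in A-498 with the mimic, 16 rose in ACHN with the inhibitor, and 14 were lower by at least 1.5-fold in 786-O with the mimic. Of the 10 renal epithelial markers listed, 9 or 10 had at least 1 CPM in every library of a line. All 5 leukocyte and all 4 endothelial markers stayed below 1 CPM in every library. The 4 fibroblast markers summed to 170.3 to 221 CPM in ACHN, 14.5 to 25.7 CPM in 786-O and 0.749 to 1.87 CPM in A-498.

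The mature miR-29 sequences are shown first, because their seed (nucleotides 2 to 8, in capitals) is what pairs with a target transcript. All 3 family members share it. The labels name only the family, and the study's supplement calls the mimic miR-29b. The mature mimic sequence given in the study's methods has the same seed and differs from RefSeq miR-29b after it, so the lines below show the natural microRNAs and not the transfected molecule. The sequences are RefSeq sequences on GRCh38.p14 and are written 5′ to 3′.
hsa-miR-29a-3p: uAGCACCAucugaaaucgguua
hsa-miR-29b-3p: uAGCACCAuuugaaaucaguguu
hsa-miR-29c-3p: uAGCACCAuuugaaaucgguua
The DNA letters that pair with the seed are TGGTGCT. They were searched in the longest annotated 3′ UTR of each gene (GENCODE v44, GRCh38), and 2 of the 51 members held a match (3.92%), against 2894 of 19248 protein-coding genes (15.0%). The members had shorter 3′ UTRs, with a median of 805 nt against 1228.5 nt. The members with a match were CCNA2, the cyclin of S phase and G2, at chr4:121816802-121816808 on the minus strand, 830 nt after the stop codon, and TPX2, the spindle factor that activates AURKA, at chr20:31801722-31801728 on the plus strand, 642 nt after the stop codon. The 30 bases around each match are printed with the match in capitals.
CCNA2: ggctttttactTGGTGCTttttcttgtttt
TPX2: tctttccttacTGGTGCTgataacaacagg
No such match was found in the annotated 3′ UTR of the other 49 members, including PLK1, CDC25B, SPC24, HMMR and AURKA, whose levels are given below. A match is a description of the letters and was not tested as a site.

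The promoters carry the motifs that these genes are known to share. RefSeq promoter sequences (250 bases before to 50 after an annotated start, GRCh38.p14) were found for 44 of the 51 members, with 54 promoters in all. The CHR motif was searched as TTTGAA or TTCGAA and the CCAAT box as CCAAT, both on either strand, and the letters of a CHR can overlap those of a CCAAT box. A CHR was present in 36 of the 54 promoters (66.7%), against 16.4% of all 35116 promoters. A CCAAT box was present in 41 (75.9% against 34.6%), and both were present in 30 (55.6% against 6.38%). An E2F motif, searched as TTTNNCGC on either strand, was present in 6 (11.1% against 6.89%). The windows printed here run from 120 bases before the start to 50 bases after it, with CHR and CCAAT letters in capitals. They were chosen because they belong to genes whose values are described below. CDC25B has further annotated promoters that hold no CHR, and only its promoter with a CHR is printed.
PLK1 at chr16:23678769-23678938, plus strand: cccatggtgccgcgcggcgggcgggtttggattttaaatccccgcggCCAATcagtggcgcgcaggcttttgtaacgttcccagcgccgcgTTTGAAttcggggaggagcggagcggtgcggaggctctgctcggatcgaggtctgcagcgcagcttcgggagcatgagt
CCNB2 at chr15:59105026-59105195, plus strand: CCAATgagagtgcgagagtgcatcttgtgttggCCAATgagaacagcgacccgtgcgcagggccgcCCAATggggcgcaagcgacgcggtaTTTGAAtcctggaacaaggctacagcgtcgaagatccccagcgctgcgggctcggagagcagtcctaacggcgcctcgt
CDC25B at chr20:3796190-3796359, plus strand: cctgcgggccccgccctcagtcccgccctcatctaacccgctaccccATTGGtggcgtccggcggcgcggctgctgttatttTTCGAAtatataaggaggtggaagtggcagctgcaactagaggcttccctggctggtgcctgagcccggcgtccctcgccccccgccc
CDC20 at chr1:43358861-43359030, plus strand: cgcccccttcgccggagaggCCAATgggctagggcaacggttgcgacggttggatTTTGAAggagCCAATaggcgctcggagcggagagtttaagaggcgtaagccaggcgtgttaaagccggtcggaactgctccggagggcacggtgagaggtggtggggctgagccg
BUB1 at chr2:110678014-110678183, minus strand: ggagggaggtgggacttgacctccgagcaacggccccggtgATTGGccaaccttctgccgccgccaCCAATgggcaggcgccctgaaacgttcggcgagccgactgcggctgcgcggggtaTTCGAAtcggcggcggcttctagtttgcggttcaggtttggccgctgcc
HMMR at chr5:163460512-163460681, plus strand: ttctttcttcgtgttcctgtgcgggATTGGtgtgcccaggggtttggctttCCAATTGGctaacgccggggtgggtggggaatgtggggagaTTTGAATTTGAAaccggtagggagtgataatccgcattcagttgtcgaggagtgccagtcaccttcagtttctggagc
CCNA2 at chr4:121823834-121824003, minus strand: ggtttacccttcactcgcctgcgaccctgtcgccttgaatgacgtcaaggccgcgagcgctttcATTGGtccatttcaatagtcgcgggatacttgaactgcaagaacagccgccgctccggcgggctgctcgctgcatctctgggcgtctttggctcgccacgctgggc
SPC24 at chr19:11155733-11155902, minus strand: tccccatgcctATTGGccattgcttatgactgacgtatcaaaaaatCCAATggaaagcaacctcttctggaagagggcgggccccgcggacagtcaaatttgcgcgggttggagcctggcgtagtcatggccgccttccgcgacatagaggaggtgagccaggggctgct
PLK1, CCNB2 and HMMR have a CHR within 30 bases before the start, and HMMR has a pair of them. BUB1 has its CHR just after the start. CCNA2 and SPC24 hold a CCAAT box and none of the searched CHR letters in the searched window. Across the 44 genes, the 33 with a CHR had a median log2 fold change of -0.28 in A-498, -0.15 in ACHN and 0.55 in 786-O. The 11 without had medians of -0.08, -0.13 and 0.61. These medians are descriptions, and the difference between the sets was not tested.

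**Figure D1:**
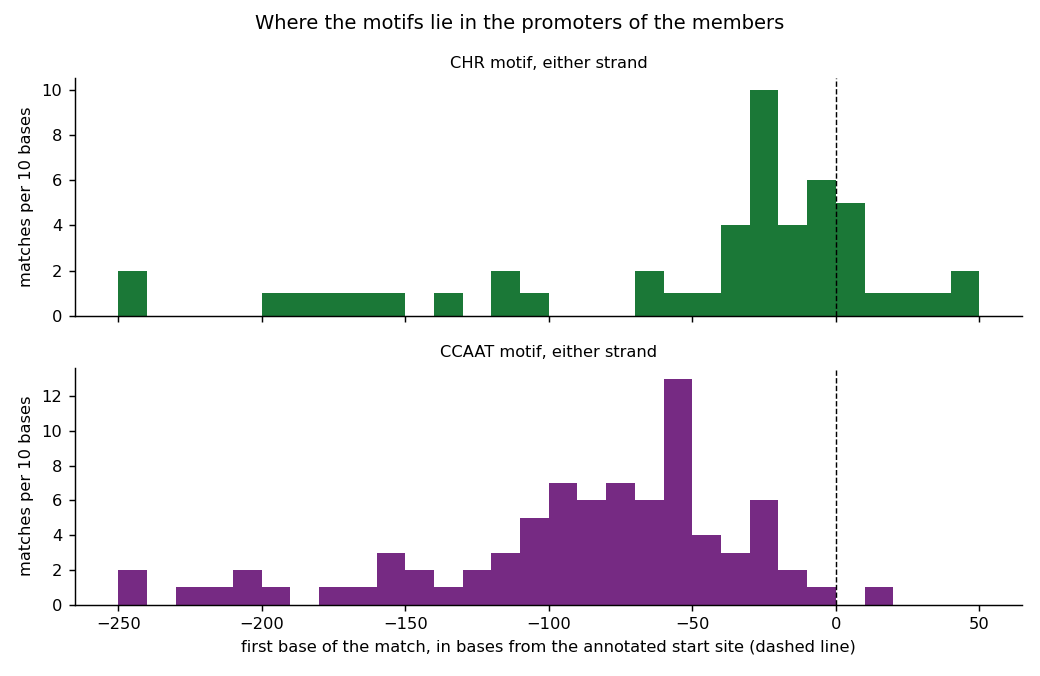
Number of motif matches per 10 bases (vertical axis) against the position of the first base of the match from the annotated start site in bases (horizontal axis), for 54 promoters of 44 members, CHR above and CCAAT below. CHR matches are most frequent within 40 bases before the start, and CCAAT matches lie mostly between 110 and 20 bases before it.

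Levels in control cells were compared between genes per kilobase of exon. The highest of the 51 in A-498 were TOP2A, the topoisomerase that untangles chromosomes (122 to 127 CPM per kb over the 2 control libraries), and CCNB1, cyclin B1 (116.0 to 116.2 CPM per kb). In ACHN they were ANLN, the actin-binding scaffold of the cleavage furrow (126 to 128 CPM per kb over 3 libraries), then TOP2A (116 to 118 CPM per kb) and CCNB1 (114 to 118 CPM per kb), and the ranges of TOP2A and CCNB1 overlapped. In the 786-O control library, TPX2 and ANLN led with 117 and 116 CPM per kb. The lowest levels were those of SGO1, the protector of centromeric cohesion, and ESPL1 (separase) in A-498 (4.16 to 4.51 and 4.10 to 4.61 CPM per kb, which overlap), CDC25C, a phosphatase that activates CDK1, in ACHN (2.99 to 3.07 CPM per kb), and SPC24, a subunit of the NDC80 complex, in 786-O (3.59 CPM per kb).

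In A-498, most mitotic genes fell with the miR-29 mimic. Of the 51, 30 were called lower and 8 higher by the quasi-likelihood test of edgeR at a Benjamini-Hochberg adjusted p under 0.05, adjusted over all 19676 genes tested. The background is 27.0% of all genes called lower and 25.5% called higher, so 58.8% of members called lower is above the share of all genes and 15.7% called higher is below it. The median log2 fold change of the members was -0.23, against 0.00 for all genes tested. The summed level of the 51 genes was 7763 and 7957 CPM in the control libraries and 6799 and 6675 CPM with the mimic, and these groups did not overlap.

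**Figure D2:**
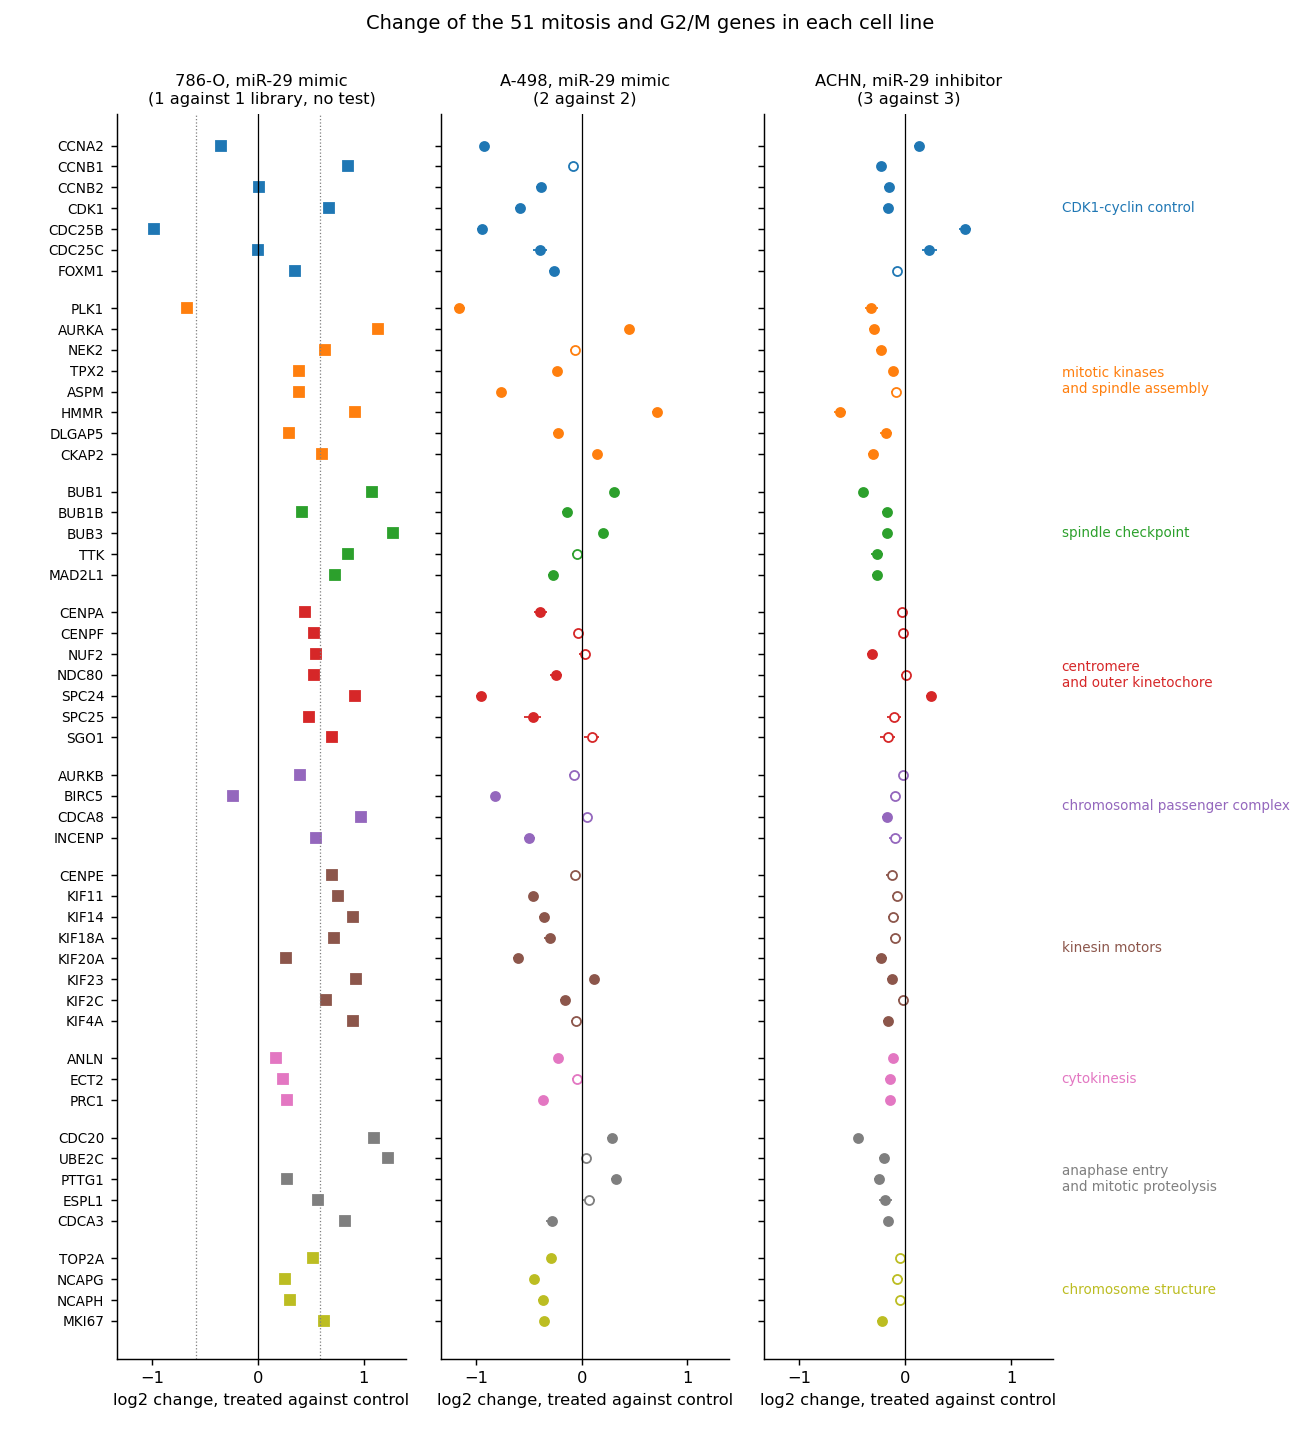
Log2 change of each of the 51 genes, treated against control (horizontal axes), by role group, in 786-O (squares, 1 library per group, dotted lines at 1.5-fold), A-498 and ACHN (circles with SE bars). Filled circles passed an adjusted p under 0.05 and open circles did not. In 786-O 46 of 51 genes lie to the right of 0, whereas 38 lie to the left in A-498 and 46 to the left in ACHN.

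The largest decrease in A-498 was that of PLK1, the kinase that runs centrosome maturation and spindle assembly, with 92.2 and 83.9 CPM in the control libraries and 38.5 and 40.5 CPM with the mimic (log2 fold change -1.16, SE 0.05, adjusted p = 4.49e-10). SPC24, which anchors the NDC80 complex to the kinetochore, had 79.8 and 80.0 CPM in the control libraries and 40.8 and 41.7 CPM with the mimic (log2 fold change -0.95, SE 0.05, adjusted p = 5.67e-10). In both genes the mimic libraries were at about the same low level and far from the controls. CDC25B, the phosphatase that first activates CDK1 in G2, had 54.7 and 54.3 CPM in the control libraries and 28.4 and 28.3 CPM with the mimic (log2 fold change -0.94, SE 0.05, adjusted p = 1.47e-09). CCNA2 had 146 and 157 CPM in the control libraries and 80.1 and 80.1 CPM with the mimic (log2 fold change -0.92, SE 0.05, adjusted p = 6.86e-10). For both of these genes the groups did not overlap. Here and below, non-overlap describes single genes only, because the share of all genes without overlap was not counted. BIRC5 (survivin, the passenger complex subunit that finds the centromere) followed at -0.82 on the log2 scale, and ASPM, a spindle pole protein, at -0.76.

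CDK1 and its regulators fell almost throughout in A-498. Of 7 genes, 6 fell (85.7%, against 27.0% of all genes) and none rose (against 25.5%), with a median log2 fold change of -0.39. CDK1, the kinase itself, had 139.9 and 149 CPM in the control libraries and 99.1 and 93.0 CPM with the mimic (log2 fold change -0.59, SE 0.05, adjusted p = 8.72e-08). CCNB1 was the exception, with 282 and 283 CPM in the control libraries and 268 and 266 CPM with the mimic (log2 fold change -0.08, SE 0.04, adjusted p = 0.0671), a difference that did not pass the test although the groups did not overlap. CCNB2, the second mitotic cyclin B, had 59.8 and 58.7 CPM in the control libraries and 46.4 and 44.5 CPM with the mimic (log2 fold change -0.38, SE 0.05, adjusted p = 1.15e-05). CDC25C fell from 16.1 and 16.4 CPM to 12.4 and 12.4 CPM (log2 fold change -0.39, SE 0.07, adjusted p = 0.000232), at a level among the lowest of the list. FOXM1, a transcription factor for G2 genes, had 107 and 101 CPM in the control libraries and 88.3 and 85.2 CPM with the mimic (log2 fold change -0.27, SE 0.04, adjusted p = 0.000178), without overlap.

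The 4 genes of chromosome structure all fell in A-498, where 27.0% of all genes fell. TOP2A had 775 and 812 CPM in the control libraries and 663 and 639 CPM with the mimic (log2 fold change -0.29, SE 0.04, adjusted p = 1.03e-05). MKI67, the Ki-67 protein that coats mitotic chromosomes and marks cycling cells, had 169 and 174 CPM in the control libraries and 133 and 135 CPM with the mimic (log2 fold change -0.36, SE 0.04, adjusted p = 2.13e-06). The condensin I subunits NCAPG and NCAPH had log2 fold changes of -0.45 and -0.37. Among the 8 kinesin motors 5 fell (62.5%) and 1 rose (12.5%), against 27.0% and 25.5% of all genes. KIF20A, the motor that carries the passenger complex to the midzone, had 134 and 132 CPM in the control libraries and 89.5 and 85.0 CPM with the mimic (log2 fold change -0.61, SE 0.04, adjusted p = 2.55e-08), and KIF11, which pushes spindle poles apart, had a log2 fold change of -0.46. The libraries are stranded, and KIF20A lies opposite CDC23 and BRD8.

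The centromere and outer kinetochore group had 4 of 7 genes called lower (57.1%, against 27.0% of all genes) and none higher (against 25.5%). Among the lower genes were SPC25, NDC80 and the centromeric histone CENPA (log2 fold changes -0.46, -0.24 and -0.39). CENPF, NUF2 and SGO1 had -0.04, 0.03 and 0.09 and did not pass the test. In the passenger complex, BIRC5 and INCENP fell (-0.82 and -0.49), whereas AURKB and CDCA8 had -0.07 and 0.05 and did not pass. For cytokinesis, ANLN had 630.5 and 643 CPM in the control libraries and 549.97 and 542 CPM with the mimic (log2 fold change -0.22, SE 0.03, adjusted p = 5.97e-05) and PRC1, the midzone crosslinker, had 262 and 264 CPM in the control libraries and 203 and 204 CPM with the mimic (log2 fold change -0.37, SE 0.04, adjusted p = 8.45e-07), whereas ECT2, the exchange factor for RhoA, had -0.05 and did not pass.

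A smaller set rose in A-498 against the direction of the rest. HMMR, a spindle protein that acts with TPX2, had 78.9 and 81.6 CPM in the control libraries and 134 and 129 CPM with the mimic (log2 fold change 0.71, SE 0.04, adjusted p = 4.88e-09), and AURKA, the spindle pole kinase, had 156 and 151 CPM in the control libraries and 209 and 209 CPM with the mimic (log2 fold change 0.45, SE 0.04, adjusted p = 1.67e-07). Of the 8 genes of the kinase and spindle assembly group, 4 fell (50%) and 3 rose (37.5%), so the group was split. The shares of all genes were 27.0% and 25.5%. CKAP2, a microtubule-associated protein, had 156 and 168 CPM in the control libraries and 183 and 176 CPM with the mimic (log2 fold change 0.15, SE 0.04, adjusted p = 0.0097). BUB1, the checkpoint kinase, had 142 and 145 CPM in the control libraries and 179.9 and 175 CPM with the mimic (log2 fold change 0.30, SE 0.04, adjusted p = 1.03e-05), and BUB3, its partner, had 171 and 176 CPM in the control libraries and 199.9 and 198 CPM with the mimic (log2 fold change 0.20, SE 0.04, adjusted p = 0.000437). None of these 5 genes overlapped between the groups. Securin, PTTG1, which has near-identical retrocopies in the genome, had 84.9 and 84.6 CPM in the control libraries and 107 and 105 CPM with the mimic (log2 fold change 0.32, SE 0.04, adjusted p = 1.42e-05), and CDC20, the activator of the anaphase-promoting complex, had 121 and 113 CPM in the control libraries and 139 and 146 CPM with the mimic (log2 fold change 0.28, SE 0.05, adjusted p = 0.000104). KIF23, the central spindle motor, had 139 and 141 CPM in the control libraries and 153 and 151 CPM with the mimic (log2 fold change 0.12, SE 0.04, adjusted p = 0.0156).

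Other members of these groups fell. TPX2 had 294 and 283 CPM in the control libraries and 246 and 245 CPM with the mimic (log2 fold change -0.23, SE 0.04, adjusted p = 9.49e-05), and DLGAP5, which stabilises kinetochore fibres, had 73.7 and 76.2 CPM in the control libraries and 65.7 and 62.9 CPM with the mimic (log2 fold change -0.22, SE 0.05, adjusted p = 0.00105). MAD2L1, the checkpoint protein that binds CDC20, had 101 and 108 CPM in the control libraries and 88.9 and 84.4 CPM with the mimic (log2 fold change -0.27, SE 0.05, adjusted p = 0.000207). CDCA3, a trigger of mitotic entry through WEE1 destruction, had 52.3 and 49.6 CPM in the control libraries and 40.4 and 43.3 CPM with the mimic (log2 fold change -0.28, SE 0.05, adjusted p = 0.000441). BUB1B (BUBR1) had 77.2 and 78.1 CPM in the control libraries and 71.2 and 69.7 CPM with the mimic (log2 fold change -0.14, SE 0.04, adjusted p = 0.0149), and it shares its strand and position with PAK6 and the read-through gene BUB1B-PAK6, so its counts are less certain. All 5 had lower values in both mimic libraries than in both controls.

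The smallest changes in A-498 were the least firm. Without mimic replicate 1, CKAP2 (0.11), BUB1B (-0.16), KIF23 (0.10) and KIF2C (-0.17) no longer passed, and without mimic replicate 2, BUB1B (-0.12), KIF23 (0.13) and KIF2C (-0.16) did not. Calls of decreases were gained by CCNB1 (-0.09), CENPF (-0.08), CENPE (-0.10) and ECT2 (-0.11) without control replicate 1, where ESPL1 gained a call of an increase (0.14), and by CCNB1 (-0.09) and AURKB (-0.14) without control replicate 3. KIF23 also missed the threshold with DESeq2 (log2 change 0.11) and with no filter on low counts (0.09). A lone library left in a group was assumed to vary like the other group. With library sizes in place of TMM factors, which moved the median of all genes to 0.08, 28 members were lower and 11 higher. Of all 19676 genes, 4352 were then lower and 6191 higher.

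**Figure D3:**
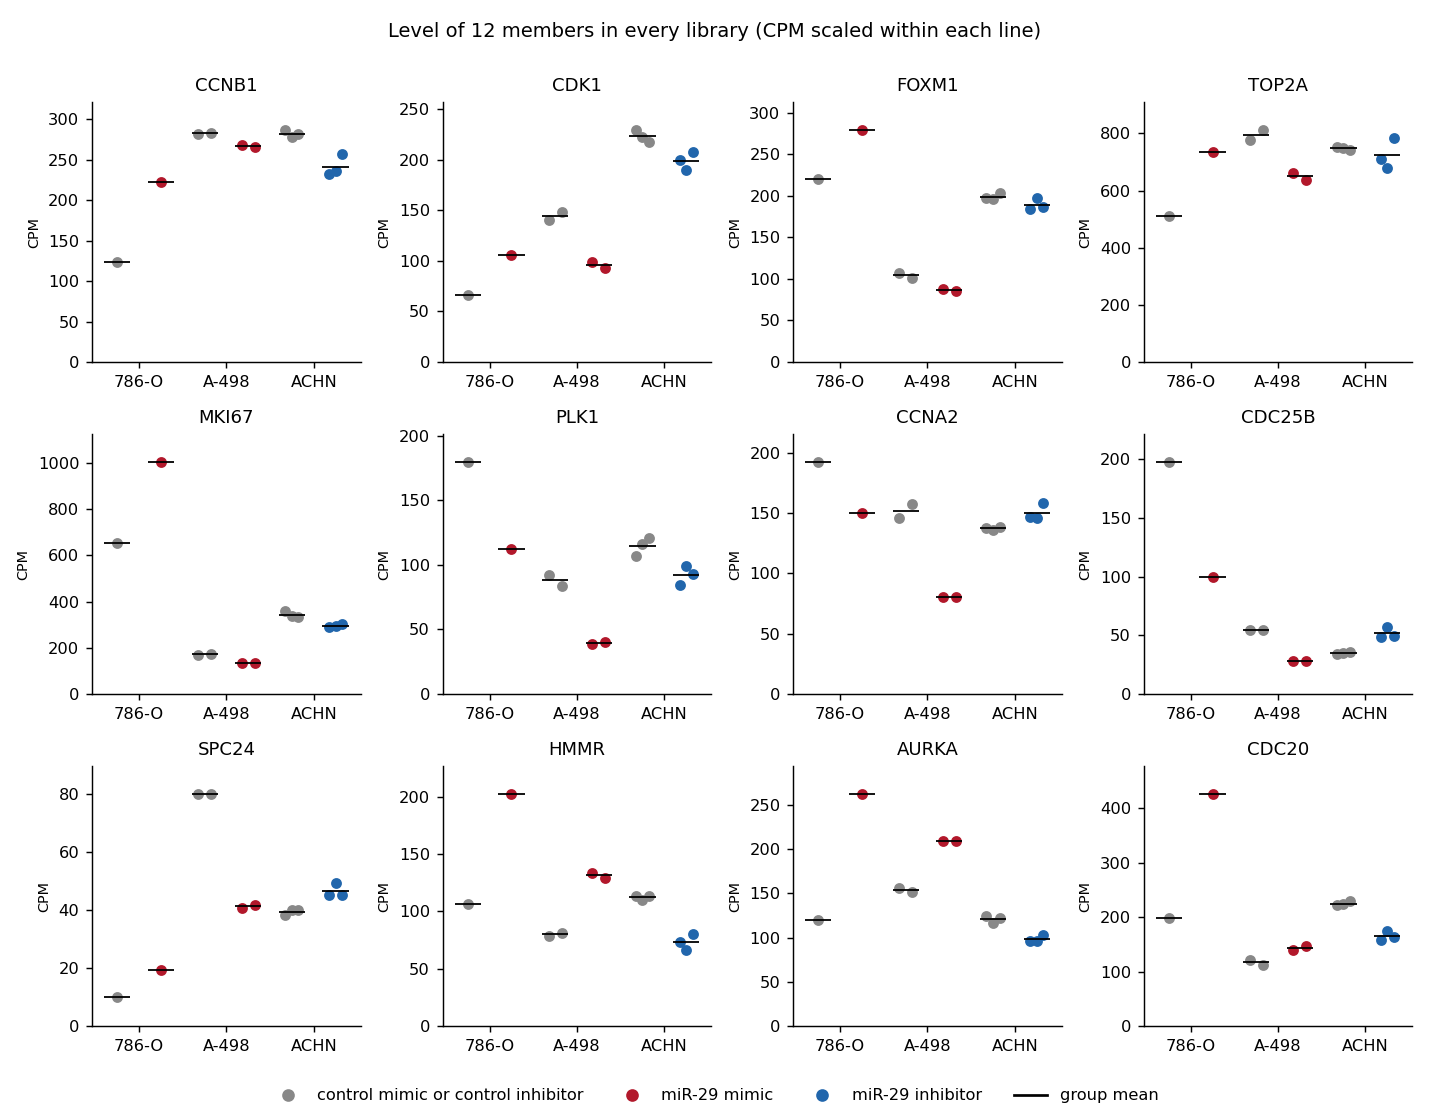
Level of 12 members in each of the 12 libraries in CPM (vertical axes, from 0), with control libraries in grey, mimic libraries in red, inhibitor libraries in blue and group means as black lines. HMMR, AURKA and CDC20 are higher with the mimic in both lines and lower with the inhibitor, and PLK1 is lower in the treated libraries of all 3 lines.

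In ACHN, the miR-29 inhibitor also came with lower levels of most mitotic genes. Of the 51, 29 were called lower and 4 higher by the same test over 17904 genes, where the background is 14.4% lower and 17.3% higher. These are 56.9% and 7.84% of the members. The median log2 fold change was -0.15, against 0.00 for all genes tested. The summed level of the 51 genes was 8925, 8877 and 8955 CPM in the control libraries and 7961, 7901 and 8497 CPM with the inhibitor. Inhibitor replicate 3 lay nearer to the controls than the other 2, and the groups did not overlap.

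The spindle checkpoint (5 of 5 genes), the anaphase entry group (5 of 5) and cytokinesis (3 of 3) fell throughout in ACHN. In the kinase and spindle assembly group 7 of the 8 genes fell (87.5%). The share of all genes that fell in ACHN was 14.4%. HMMR had the largest decrease, with 113, 109.7 and 114 CPM in the control libraries and 73.3, 66.1 and 80.0 CPM with the inhibitor (log2 fold change -0.61, SE 0.06, adjusted p = 1.85e-07). CDC20 had 222, 224 and 229 CPM in the control libraries and 158, 175 and 164 CPM with the inhibitor (log2 fold change -0.44, SE 0.05, adjusted p = 5.36e-07), and BUB1 had 279.6, 277 and 277 CPM in the control libraries and 211, 199 and 224 CPM with the inhibitor (log2 fold change -0.40, SE 0.04, adjusted p = 2.02e-06). The 3 genes were separated from their controls by gaps wider than the spread within either group. PLK1 had 107, 116 and 121 CPM in the control libraries and 84.0, 98.8 and 93.0 CPM with the inhibitor (log2 fold change -0.32, SE 0.06, adjusted p = 0.00041), with a wider spread in both groups and no overlap. AURKA had 124, 117 and 122 CPM in the control libraries and 96.0, 96.3 and 103 CPM with the inhibitor (log2 fold change -0.30, SE 0.05, adjusted p = 8.49e-05).

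The CDK1 and cyclin group was split in ACHN, with 3 genes lower and 3 higher (42.9% each, against 14.4% and 17.3% of all genes). CCNB1 had 287, 279 and 281 CPM in the control libraries and 232, 236 and 257 CPM with the inhibitor (log2 fold change -0.22, SE 0.04, adjusted p = 0.000724), CDK1 had 229, 222 and 218 CPM in the control libraries and 200.1, 189.8 and 208 CPM with the inhibitor (log2 fold change -0.16, SE 0.04, adjusted p = 0.00788) and CCNB2 had 78.3, 80.0 and 83.4 CPM in the control libraries and 69.8, 71.6 and 76.0 CPM with the inhibitor (log2 fold change -0.15, SE 0.05, adjusted p = 0.0204). CDC25B rose most of all members, with 34.5, 34.8 and 35.9 CPM in the control libraries and 49.0, 57.0 and 49.5 CPM with the inhibitor (log2 fold change 0.56, SE 0.06, adjusted p = 3.77e-07). CDC25C had 10.2, 9.99 and 9.97 CPM in the control libraries and 12.004, 11.8 and 11.5 CPM with the inhibitor (log2 fold change 0.23, SE 0.07, adjusted p = 0.0157), and CCNA2 had 137, 136 and 138 CPM in the control libraries and 146, 146 and 158 CPM with the inhibitor (log2 fold change 0.13, SE 0.05, adjusted p = 0.0346). The groups did not overlap in any of these 6 genes. FOXM1 had 197, 196 and 203 CPM in the control libraries and 184, 197 and 186 CPM with the inhibitor (log2 fold change -0.07, SE 0.04, adjusted p = 0.22), and its groups overlapped. The fourth gene called higher was SPC24, with 38.4, 40.0 and 39.9 CPM in the control libraries and 45.3, 49.4 and 45.3 CPM with the inhibitor (log2 fold change 0.24, SE 0.05, adjusted p = 0.000773), also without overlap.

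The chromosome structure group changed little in ACHN. MKI67 fell, with 361, 338 and 332 CPM in the control libraries and 288, 293 and 303 CPM with the inhibitor (log2 fold change -0.22, SE 0.04, adjusted p = 0.00046), and TOP2A had 753, 749 and 742 CPM in the control libraries and 711, 679 and 784 CPM with the inhibitor (log2 fold change -0.05, SE 0.04, adjusted p = 0.467), with inhibitor replicate 3 above every control. NCAPG and NCAPH had log2 fold changes of -0.08 and -0.04 and did not pass. Of the kinesins, KIF20A had 104, 102 and 105 CPM in the control libraries and 82.4, 90.1 and 93.4 CPM with the inhibitor (log2 fold change -0.23, SE 0.05, adjusted p = 0.00196), KIF23 had 156, 151 and 149 CPM in the control libraries and 137, 135 and 147 CPM with the inhibitor (log2 fold change -0.12, SE 0.05, adjusted p = 0.0497) and KIF4A, a chromosome-arm motor with a near-identical copy (KIF4B), fell by 0.16 on the log2 scale, whereas the other 5 ran from -0.13 (CENPE) to -0.02 (KIF2C) and did not pass. In the kinetochore group NUF2 fell (-0.31), whereas CENPA, CENPF and NDC80 had -0.03, -0.02 and 0.01 and did not pass.

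The other genes called lower in both lines moved by small amounts in ACHN. TPX2 had 275, 273 and 276 CPM in the control libraries and 251, 245 and 264 CPM with the inhibitor (log2 fold change -0.12, SE 0.04, adjusted p = 0.0379), and DLGAP5 had 112, 113 and 112 CPM in the control libraries and 97.6, 90.1 and 109 CPM with the inhibitor (log2 fold change -0.18, SE 0.06, adjusted p = 0.0197). MAD2L1 had 99.9, 91.4 and 93.8 CPM in the control libraries and 79.1, 76.2 and 81.4 CPM with the inhibitor (log2 fold change -0.27, SE 0.05, adjusted p = 0.000308) and BUB1B had 84.3, 84.2 and 86.4 CPM in the control libraries and 71.7, 74.2 and 80.0 CPM with the inhibitor (log2 fold change -0.17, SE 0.05, adjusted p = 0.0102). In each of these genes inhibitor replicate 3 was the treated library nearest to the controls. ANLN had 767, 757 and 767 CPM in the control libraries and 697, 669 and 743 CPM with the inhibitor (log2 fold change -0.12, SE 0.04, adjusted p = 0.0237), PRC1 had 275, 272 and 289 CPM in the control libraries and 246, 250.02 and 263 CPM with the inhibitor (log2 fold change -0.14, SE 0.04, adjusted p = 0.016) and CDCA3 had 71.5, 72.3 and 75.0 CPM in the control libraries and 64.1, 67.8 and 64.0 CPM with the inhibitor (log2 fold change -0.16, SE 0.04, adjusted p = 0.0103). None of these 7 genes overlapped between the groups.

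The remaining genes that rose in A-498 fell in ACHN. PTTG1 had 107, 103 and 107 CPM in the control libraries and 85.9, 87.4 and 92.8 CPM with the inhibitor (log2 fold change -0.25, SE 0.05, adjusted p = 0.000408), and CKAP2 had 133, 132 and 128 CPM in the control libraries and 105, 101 and 112 CPM with the inhibitor (log2 fold change -0.30, SE 0.05, adjusted p = 8.49e-05). BUB3 had 317, 308 and 305 CPM in the control libraries and 279, 267 and 282 CPM with the inhibitor (log2 fold change -0.17, SE 0.04, adjusted p = 0.00312). The inhibitor libraries were below every control in all 3 genes.

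Several of the small changes in ACHN passed the threshold only in part of the fits. With all 6 libraries kept, the call of CCNA2 was lost with RLE size factors in place of TMM (0.12), and those of TPX2 (-0.10) and KIF23 (-0.11) with no filter on low counts. Leaving out 1 library changed these and other calls, given with their log2 fold changes. Without control replicate 1 the genes CCNA2 (0.13), TPX2 (-0.12), KIF23 (-0.11), ANLN (-0.12) and ECT2 (-0.14) no longer passed. Without control replicate 2 the same was true of CCNA2 (0.12), CDC25C (0.22), TPX2 (-0.13), DLGAP5 (-0.18), KIF23 (-0.13) and ESPL1 (-0.18), and without control replicate 3 of CCNA2 (0.13), CCNB2 (-0.13), CDC25C (0.22), TPX2 (-0.12), CDCA8 (-0.14), KIF23 (-0.14), ANLN (-0.12), PRC1 (-0.12) and ESPL1 (-0.14). Leaving out inhibitor replicate 1 ended the calls of CCNA2 (0.14), CCNB2 (-0.13), CDC25C (0.21), TPX2 (-0.12), KIF23 (-0.12), PRC1 (-0.13) and ESPL1 (-0.15), and leaving out inhibitor replicate 3 ended those of CCNA2 (0.09) and ESPL1 (-0.18). Calls were gained by FOXM1 (-0.11), BIRC5 (-0.14) and INCENP (-0.17) without inhibitor replicate 2, and by ASPM (-0.15), SGO1 (-0.24), CENPE (-0.19), KIF14 (-0.18) and KIF18A (-0.15) without inhibitor replicate 3. The number of members called higher was 2 without control replicate 2, 2 without control replicate 3 and 2 without inhibitor replicate 1. CDC25B and SPC24 kept their calls in every one of these fits.

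Set side by side, the A-498 and ACHN calls of the 51 members gave 6 combinations. Each is read against the share of the 16708 genes tested in both lines that had the same pair of calls. All 8 members that rose with the mimic in A-498 (HMMR, AURKA, PTTG1, BUB1, CDC20, BUB3, CKAP2 and KIF23) fell with the inhibitor in ACHN. They are 15.7% of the members, and 7.37% of all genes had this pair of calls. A set of 4 went the other way, since CDC25B, CCNA2, SPC24 and CDC25C fell with the mimic and rose with the inhibitor. They are 7.84% of the members, which is not above the 10.5% of all genes with this pair. The calls of CCNA2 and CDC25C in ACHN did not hold in every fit. Another set of 12 fell under both treatments: PLK1, CDK1, CCNB2, KIF20A, MKI67, PRC1, MAD2L1, CDCA3, TPX2, DLGAP5, ANLN and BUB1B (2.56% of all genes). The most frequent combination held 14 members that fell in A-498 and were not called in ACHN, BIRC5, ASPM and TOP2A among them (16.5% of all genes). A further 9, such as CCNB1, NUF2 and TTK, were not called in A-498 and fell in ACHN (5.04% of all genes), and CENPF, SGO1, AURKB and CENPE were called in neither (34.6% of all genes). No member rose under both (2.80% of all genes), and none had a call in 1 line only that was an increase (16.4% of all genes in A-498 and 4.31% in ACHN). Across the 51 genes the log2 fold changes of A-498 and ACHN, which share no library, had a Pearson r of -0.62 and a Spearman rho of -0.56, and over all 16708 genes tested in both lines r was -0.27 and rho -0.28. The genes are not independent replicates, all genes were not matched to the members by level, and no test was made of this relation.

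**Figure D4:**
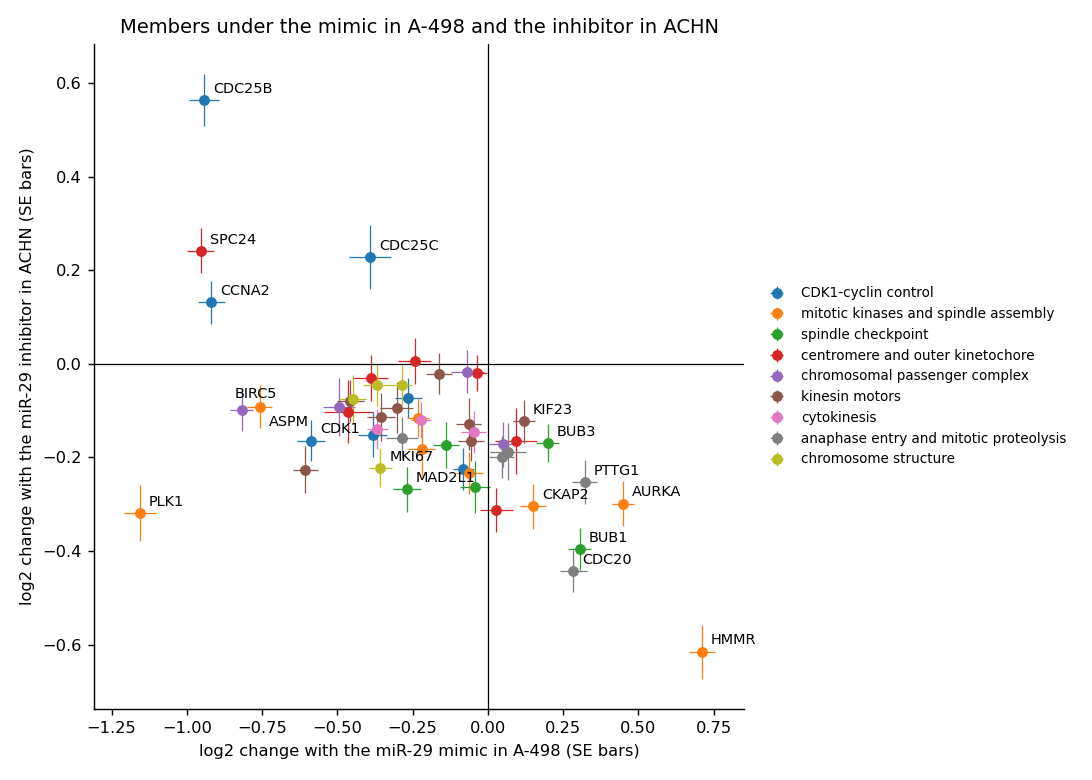
Log2 fold change with the inhibitor in ACHN (vertical axis) against that with the mimic in A-498 (horizontal axis) for each of the 51 genes, coloured by role, with SE bars. HMMR, AURKA, CDC20 and BUB1 lie at the lower right, CDC25B, SPC24, CCNA2 and CDC25C at the upper left, and 33 genes lie below 0 on both axes.

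In 786-O, the mimic library stood higher than its control for most mitotic genes. With 1 library per group these ratios have no replicate check and no p-value. Of the 51 genes 46 had a log2 ratio above 0, and the median was 0.55, against -0.01 for all 20370 genes above the count minimum. The ratio was at least 1.5-fold higher for 24 members (47.1%) and at least 1.5-fold lower for 2 (3.92%), where the background is 15.7% of all genes higher and 19.0% lower. At 2-fold the count of members was 5 higher and 0 lower, against 6.73% and 8.96% of all genes. The summed level of the 51 genes was 7416 CPM in the control library and 10516 CPM with the mimic.

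The highest ratios were those of BUB3, with 86.9 CPM in the control library and 210.01 CPM with the mimic (log2 ratio 1.27), and UBE2C, with 65.9 CPM in the control library and 154 CPM with the mimic (log2 ratio 1.23). AURKA had 119.6 CPM in the control library and 262 CPM with the mimic (log2 ratio 1.13) and CDC20 had 199 CPM in the control library and 426 CPM with the mimic (log2 ratio 1.10). All 4 were more than 2-fold higher in the mimic library. BUB1 (1.08), KIF23 (0.93) and HMMR (0.92), which rose in A-498 as well, were also high, as were CDCA8 (0.97), KIF4A (0.90) and KIF14 (0.90). Of the 8 kinesins 7 were higher by at least 1.5-fold (87.5%), and of the 5 checkpoint genes 4 were (80%), against 15.7% of all genes.

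The 5 members below 0 in 786-O included the regulators that fell most in A-498. CDC25B had 198 CPM in the control library and 100.03 CPM with the mimic (log2 ratio -0.98), PLK1 had 179.6 CPM in the control library and 112 CPM with the mimic (log2 ratio -0.68) and CCNA2 had 192 CPM in the control library and 150.2 CPM with the mimic (log2 ratio -0.36). BIRC5 had 102 CPM in the control library and 86.0 CPM with the mimic (log2 ratio -0.24). CDC25C had 12.4 CPM in the control library and 12.4 CPM with the mimic, a ratio of about 1. SPC24 differed from this set, with 10.2 CPM in the control library and 19.3 CPM with the mimic (log2 ratio 0.92). Its level per kilobase was among the lowest of the list in that line.

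The common proliferation markers were higher in the 786-O mimic library. MKI67 had 653 CPM in the control library and 1003 CPM with the mimic (log2 ratio 0.62), TOP2A had 512 CPM in the control library and 736 CPM with the mimic (log2 ratio 0.52) and CCNB1 had 123 CPM in the control library and 223 CPM with the mimic (log2 ratio 0.85). CDK1 had 66.2 CPM in the control library and 106 CPM with the mimic (log2 ratio 0.67) and FOXM1 had 219.5 CPM in the control library and 279 CPM with the mimic (log2 ratio 0.35). CCNB1 gained the most of these 5. CCNB2 did not follow CCNB1, with 83.6 CPM in the control library and 84.4 CPM with the mimic (log2 ratio 0.01).

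**Figure D5:**
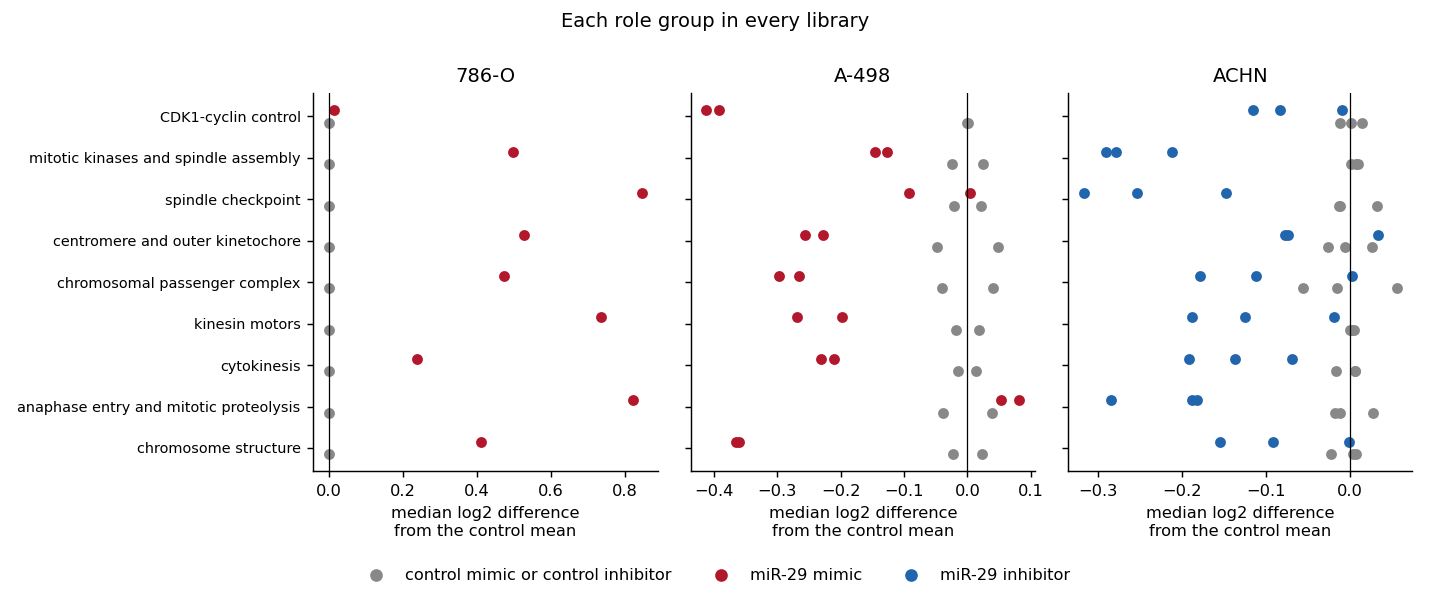
Median over the genes of each role group of the log2 CPM difference from the control mean of the same line (horizontal axes), for every library, with controls in grey, mimic in red and inhibitor in blue. In A-498 the mimic libraries lie right of the controls for anaphase entry, are mixed for the spindle checkpoint and lie left for every other group. In ACHN the inhibitor libraries lie left of every control for spindle checkpoint, anaphase entry, kinases and spindle assembly, kinesins and cytokinesis. The other ACHN groups overlap their controls. In 786-O the CDK1 and cyclin group lies closest to its control.

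The mimic effect was then compared between 786-O and A-498 by the interaction of line and agent, on 6 libraries, with the spread taken from A-498 because 786-O has 1 library per group. The adjusted p-values therefore hold no information on how 786-O libraries vary, and how many pass depends on the spread assumed: 49 of the 51 members passed an adjusted p under 0.05 in edgeR over 22587 genes with the spread of A-498 (16.5% of all genes passed in this direction), and 1 passed with a biological coefficient of variation fixed at 0.2 for all libraries. All 51 estimates of this fit were above 0. Taken line by line, CDC25B (-0.98 against -0.94) and PTTG1 (0.28 against 0.32) were slightly lower in 786-O than in A-498. The median estimate was 0.81 on the log2 scale, against 0.03 for all genes. The largest was that of SPC24 (1.92, SE 0.11, adjusted p = 6.64e-11), followed by CDK1 (1.30, SE 0.08, adjusted p = 3.69e-10) and KIF14 (1.30, SE 0.08, adjusted p = 4.76e-10). The 2 genes that did not pass were CDC25B (0.01, SE 0.08, adjusted p = 1) and PTTG1 (0.00, SE 0.07, adjusted p = 1), which had nearly equal changes in the 2 lines.

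Across the 51 genes, the log2 ratios of 786-O and the log2 fold changes of A-498 had a Pearson r of 0.66 and a Spearman rho of 0.57, against 0.35 and 0.34 over 17473 genes, as a description with no test. The 17473 genes were not matched to the members by level. The libraries of the 2 lines are separate, but they share the mimic and the protocol. The 2 sets of values lay around medians of 0.55 and -0.23.

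A further 117 genes of mitosis and its regulation in 6 lists were tested in the same fits. In A-498, 63 fell and 17 rose (median -0.16), against 27.0% and 25.5% of all genes. In ACHN 38 fell and 20 rose (median -0.05), against 14.4% and 17.3%. In 786-O 22 were higher and 10 lower by at least 1.5-fold (median 0.22), which is 18.8% of the lists higher, near the 15.7% of all genes, and 8.55% lower, against 19.0%. Other kinetochore genes had 22 of 32 called lower and none higher in A-498, whereas ACHN had 7 called in each direction. Of 15 condensin and cohesin genes, 12 fell and 1 rose in A-498, and 7 fell and 1 rose in ACHN. Of 25 other spindle and cytokinesis genes, A-498 had 11 lower and 4 higher, and ACHN had 10 lower and 1 higher. Subunits and partners of the anaphase-promoting complex were mixed: of 17, 5 fell and 6 rose in A-498, and 4 fell and 3 rose in ACHN.

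MYBL2 (B-Myb), which joins the MuvB complex to switch on G2 genes, had the largest change among these lists, with a log2 fold change of -2.57 in A-498 (SE 0.06, adjusted p = 4.49e-13) and 0.55 in ACHN (SE 0.06, adjusted p = 5.72e-07), and a log2 ratio of -2.52 in 786-O. Of the 11 DREAM and MuvB genes 6 fell and 2 rose in A-498 (54.5% and 18.2%). In ACHN 3 of them fell and 4 rose (27.3% and 36.4%). Among 17 regulators of G2/M entry 7 fell and 4 rose in A-498 (41.2% and 23.5%), and again 7 fell and 4 rose in ACHN. Of all genes, 27.0% fell and 25.5% rose in A-498, and 14.4% fell and 17.3% rose in ACHN. The share of regulators that rose in A-498 was thus near that of all genes. CCNF (cyclin F) fell in A-498 (-1.05) and rose in ACHN (0.38), GADD45A, a stress-induced inhibitor of CDK1, rose in A-498 (1.74), and the CDK inhibitor gene CDKN1A rose in A-498 (0.57) and in ACHN (0.82). Their log2 ratios in 786-O were -0.43 for CCNF, -0.06 for GADD45A and -0.60 for CDKN1A, the last more than 1.5-fold lower in the mimic library.

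The 3′ UTRs of these genes were searched for the same seed match. Of the 117 genes, 12 had a match to TGGTGCT in the longest 3′ UTR. In A-498 10 of them fell and 1 rose, in ACHN none fell and 7 rose, and their medians were -0.51 and 0.16, with -0.34 in 786-O. Of the 105 without a match, 53 fell and 16 rose in A-498, and 38 fell and 13 rose in ACHN. Their medians were -0.13 in A-498, -0.08 in ACHN and 0.29 in 786-O. Of all genes, 27.0% fell and 25.5% rose in A-498, and 14.4% fell and 17.3% rose in ACHN. The 7 that rose in ACHN were MYBL2, CDC23 (a scaffold subunit of the anaphase-promoting complex), CCNF, SPDL1 and CENPK (kinetochore proteins), CENPT and STAG2 (a cohesin subunit), and all 7 fell in A-498. Of the members with a match, CCNA2 was lower in both mimic lines and higher in ACHN, whereas TPX2 was lower in A-498 and ACHN and higher in 786-O. OIP5, a gene of the kinetochore list with no match in its longest 3′ UTR, had the same directions as CCNA2 (-2.22 in A-498, 0.44 in ACHN and -2.09 in 786-O), and was singled out after its values were seen. No test of these sets was made.

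The 31 DNA replication genes, which act in S phase just before, give the nearest other cell cycle list. In A-498 24 fell (77.4%, against 27.0% of all genes) and 1 rose (median -0.38). In ACHN 23 fell (74.2%, against 14.4% of all genes) and 1 rose (median -0.28). The median was further below 0 than that of the 51 members in both lines. In 786-O 2 were lower and 3 higher by at least 1.5-fold (6.45% and 9.68%, against 19.0% and 15.7% of all genes). The median log2 ratio was 0.14, against 0.55 for the mitotic genes. GINS2, a subunit of the replicative helicase, had the largest decrease in A-498 (-1.85), and MCM6, another helicase subunit, the largest in ACHN (-0.69). The difference between the lists was not tested.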

How the data were processed

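RNA-seq was made from 12 libraries of the lines 786-O, A-498 and ACHN. The authors prepared stranded libraries after ribosomal RNA depletion, aligned paired reads to GRCh38 with HISAT2 and counted them per Ensembl v87 gene with HTSeq in its strict intersection mode. The deposited values are raw counts, not normalised. Their versions were not given in the sources used here. The authors' tables of DESeq2 results hold mean counts, fold changes and p-values and were not used, and 2 further A-498 libraries that the study set aside were not analysed here. Reads in no single gene made up 37.2% to 48.0% per library, and lines naming no gene were left out.

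Symbols came from GENCODE v44 and matched 56948 of 58051 identifiers (98.1%). Counts were tested per line with the quasi-likelihood F test of edgeR 4.0.16 (limma 3.58.1, R 4.3.3), with TMM factors, filterByExpr by group, Benjamini-Hochberg adjustment over all genes tested and no block. In 786-O the log2 ratio of CPM (prior count 2, at least 10 counts in the 2 libraries together) was used without a test. The scripts were tested on simulated counts. Replicates varied with a biological coefficient of variation of 3.83% (A-498) and 5.25% (ACHN), and every replicate pair differed by more than counting noise (chi-square per degree of freedom 3.87 to 12.2). The study calls the replicates biological. Intervals from counts cover counting error only.

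Alternatives were library size, RLE factors, DESeq2 1.42.0, no filter, stricter thresholds, a replicate block in ACHN and leaving out each library. The members and lists were chosen with earlier results of these data known. Values in every library were given for CCNB1, CDK1, PLK1, TOP2A, MKI67 and FOXM1, for the 4 called members lowest and the 4 highest in A-498 and ACHN, for the 4 lowest and 4 highest ratios in 786-O, and for members called against the majority of a line or in the same direction in A-498 and ACHN. Of other lists, up to the 3 called genes per list and line with the largest change were named; genes with a seed match beyond these were named after their values were seen.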

Additional observations from a re-analysis of the deposited data

Results flagged for a closer look

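In the interaction fit, the estimated effect of the mimic was more positive in 786-O than in A-498 for all 51 mitotic genes. For CDC25B and PTTG1 the estimate was close to 0 (0.01 and 0.00). Taken line by line, both were slightly lower in 786-O (-0.98 against -0.94 for CDC25B and 0.28 against 0.32 for PTTG1). In the interaction of line and agent in edgeR, 49 passed an adjusted p under 0.05 with the spread of A-498, and 1 passed with a biological coefficient of variation fixed at 0.2, so the test does not settle how many differ between the lines. In 9 genes the directions were opposite, with a called decrease in A-498 and a level at least 1.5-fold higher in the 786-O mimic library. The share of all genes with this pair was not counted, and the 9 genes were picked by these values. Their interaction estimates, as 786-O minus A-498 on the log2 scale, were 1.92 for SPC24, 1.30 for CDK1, 1.30 for KIF14, 1.25 for KIF11, 1.15 for CDCA3, 1.07 for KIF18A, 1.04 for MAD2L1, 1.02 for MKI67 and 0.85 for KIF2C. The 786-O libraries have no replicate, and line and any difference in how the cultures were handled cannot be told apart.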

How the results depend on the processing

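In A-498 the counts of members called stayed within 1.5 times of 30 lower and 8 higher in every alternative. The main fit called 27.0% of all genes lower and 25.5% higher, and these shares moved with the setting. The median of the members was -0.16 with library size in place of TMM and -0.26 with no filter on low counts. In ACHN, leaving out 1 library gave 22 to 33 members lower and 2 to 4 higher. Over all genes, those fits called 2052 to 2951 lower and 2503 to 3161 higher. An adjusted p under 0.01 gave 19 members lower and 2 higher, and the share of all genes at that threshold was not counted. The replicate block in ACHN gave 29 lower and 4 higher, as without it, and a median of -0.15, and over all genes it called 2638 lower and 3125 higher against 2578 and 3102. Same-numbered ACHN libraries did not deviate together in every pair (correlations 0.41, -0.15 and -0.01), and 1 of the 3 control libraries correlated best with the inhibitor library of its own number. No paired analysis was possible in A-498 because its groups share 1 replicate number only.

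The median log2 ratio of the members in 786-O was 0.58 with library size and 0.57 with at least 50 counts, and at 2-fold in place of 1.5-fold 0 members were lower and 5 higher (8.96% and 6.73% of all genes). The median interaction was 0.71 with library size and 0.68 to 0.81 when 1 A-498 library was left out. With a biological coefficient of variation fixed at 0.2, 1 member passed, and the share of all genes was not counted. No member's called change reversed its direction under any alternative run. The causes of these differences were not tested. Depth does not limit the members, since the least covered had 399 reads in its shallowest library. 786-O has 1 library per group, so its ratios have no replicate check.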
